A study of Homo sapiens with 4 samples.

Results

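Epithelial cells and mesenchymal cells are held apart by regulators that oppose each other, and 10 genes that encode them were examined in the chromatin maps of MHCC97L cells. The 5 genes ZEB1, ZEB2, SNAI1, SNAI2 and TWIST1 encode transcription factors that drive the epithelial-mesenchymal transition (EMT). The 5 genes GRHL2, OVOL1, OVOL2, ESRP1 and ESRP2 encode factors that hold cells in the epithelial state. The genes were chosen by name, 10 of the 19974 protein-coding genes on chromosomes 1 to 22 and X, and each was taken with 100 kb on either side. MHCC97L is an established cell line from a human hepatocellular carcinoma. The cells were untreated, were labelled wild type (WT), and grew in medium with 10% fetal bovine serum. A library each was made by chromatin immunoprecipitation and sequencing (ChIP-seq) for acetylated lysine 27 of histone H3 (H3K27ac), for monomethylated lysine 4 (H3K4me1) and for trimethylated lysine 4 (H3K4me3). Lists of peak summits describe these 3 libraries, and the 4th sample, input chromatin, was not analysed here. With 1 line, 1 library for each mark and no RNA, the values describe marks on chromatin in this line and no difference was tested.

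In EMT, epithelial cells lose their junctions and gain motility, and in carcinomas the programme is linked to invasion. ZEB and SNAI proteins bind E-box sequences in the promoters of epithelial genes such as CDH1 and repress them, while GRHL2 and OVOL proteins repress ZEB1 and keep junction genes active, and ESRP proteins direct the epithelial pattern of splicing. H3K4me3 marks promoters, H3K4me1 marks enhancers and the flanks of promoters, and H3K27ac marks promoters and enhancers that are active.

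The windows of the 10 genes held 131 H3K27ac, 184 H3K4me1 and 79 H3K4me3 summits. Each mark was found in 9 of the 10 windows, against 90.6%, 80.1% and 92.4% of all protein-coding genes for H3K27ac, H3K4me1 and H3K4me3. Each summit is 1 bp wide and has a score, the −log10 p-value or q-value that the authors deposited, which ranks summits within 1 list and was not compared between marks. Over the whole lists the median score was 8.40 for 70028 H3K27ac summits, 4.58 for 86366 H3K4me1 summits and 8.23 for 46078 H3K4me3 summits. How deeply the libraries were sequenced is unknown. As a check of the labelled cell type, H3K4me3 and H3K27ac lay together at the start of 2 of 7 hepatocyte markers (TF and HNF4A), of 2 of 4 epithelial markers (KRT8 and KRT18), and of none of 5 fibroblast, 3 endothelial and 2 leukocyte markers. Both marks lay at the start of 50.0% of all protein-coding genes, so neither the hepatocyte nor the epithelial markers stood above that share. The hepatocyte genes ALB, APOA2 and TTR had no summit in the gene or on its flanks of 1000 bp. PECAM1, an endothelial marker, had an H3K27ac summit of 43.9 at a boundary and 27 distal sites with H3K27ac and H3K4me1 in its window. PTPRC, a leukocyte marker, had H3K27ac up to 38.8 and H3K4me3 of 7.29 in the gene or on its flanks of 1000 bp. LUM, a fibroblast marker, had H3K4me3 of 11.1 at a boundary.

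Promoter sequence is shown for ZEB1 and ZEB2, because RefSeq starts with strand were listed for these 2 members. RefSeq (GRCh38.p14) lists 7 starts for ZEB1 and 1 for ZEB2, each with 250 bases before and 50 after it. Sequences a, b and c are ZEB1 promoters on the plus strand at chr10:31318167-31318466, chr10:31318568-31318867 and chr10:31318966-31319265, and sequence d is the ZEB2 promoter on the minus strand at chr2:144520070-144520369. Capitals mark CAGGTG or its reverse complement CACCTG, the E-box to which ZEB and SNAI proteins bind.
a: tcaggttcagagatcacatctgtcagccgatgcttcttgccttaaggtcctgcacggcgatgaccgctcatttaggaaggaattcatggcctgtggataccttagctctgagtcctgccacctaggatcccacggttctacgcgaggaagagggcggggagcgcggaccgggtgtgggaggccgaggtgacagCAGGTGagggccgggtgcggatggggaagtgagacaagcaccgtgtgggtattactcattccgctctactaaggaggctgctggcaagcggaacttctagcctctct
b: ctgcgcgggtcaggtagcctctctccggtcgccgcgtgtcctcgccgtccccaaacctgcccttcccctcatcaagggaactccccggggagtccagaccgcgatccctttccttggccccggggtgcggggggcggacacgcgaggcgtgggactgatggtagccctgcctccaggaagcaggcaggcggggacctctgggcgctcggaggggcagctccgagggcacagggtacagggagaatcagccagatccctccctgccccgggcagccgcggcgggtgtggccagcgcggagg
c: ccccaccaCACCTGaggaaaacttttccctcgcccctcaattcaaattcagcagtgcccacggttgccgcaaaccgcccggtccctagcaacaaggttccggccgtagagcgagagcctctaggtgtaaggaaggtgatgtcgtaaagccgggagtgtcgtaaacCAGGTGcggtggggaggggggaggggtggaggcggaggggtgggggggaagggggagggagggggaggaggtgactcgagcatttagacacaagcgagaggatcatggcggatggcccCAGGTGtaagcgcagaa
d: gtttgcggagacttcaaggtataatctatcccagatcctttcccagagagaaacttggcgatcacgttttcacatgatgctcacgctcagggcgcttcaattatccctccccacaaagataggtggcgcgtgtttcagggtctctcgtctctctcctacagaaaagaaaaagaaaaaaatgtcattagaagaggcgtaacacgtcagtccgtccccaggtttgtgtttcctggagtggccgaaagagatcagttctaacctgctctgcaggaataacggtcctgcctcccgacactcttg
Sequence a holds 1 E-box, 57 bases before the ZEB1 start, and sequence c holds 3. Sequence b holds none, and it contains both an H3K4me3 summit, at base 65, and an H3K27ac summit, at base 89. The ZEB2 sequence holds no E-box and no summit. Over both strands CAGGTG occurred in 2 of these 8 windows and in 20.6% of the 35116 human promoters in the table. CCGGTT, the core of the grainyhead motif, occurred in 0 of the 8 and in 7.23% of all.

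The mature microRNAs that target ZEB1 and ZEB2 are shown with the seed, bases 2 to 8, in capitals, because their genes were examined beside the members. The miR-200 family members fall into a pair and a trio by seed.
hsa-miR-141-3p: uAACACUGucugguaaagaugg
hsa-miR-200a-3p: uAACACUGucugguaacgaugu
hsa-miR-200b-3p: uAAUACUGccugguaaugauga
hsa-miR-200c-3p: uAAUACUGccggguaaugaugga
hsa-miR-429: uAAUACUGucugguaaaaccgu
hsa-miR-205-5p: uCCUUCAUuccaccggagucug
The seed AACACUG is shared by 2 of them and AAUACUG by 3, and these 5 come from 2 loci, on chromosome 1 and chromosome 12. The seed of miR-205 is CCUUCAU.

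A start counted as marked when a summit lay within 1000 bp of it. For members with no RefSeq start in the table, either gene boundary served as the start, since the gene table gives no strand. H3K4me3 lay at the start of 5 of the 10 genes, against 59.2% of all protein-coding genes. These were ZEB1, SNAI1 and SNAI2 among the EMT transcription factor genes and OVOL2 and ESRP2 among the epithelial genes. H3K27ac lay at the start of 4 of the 10, against 55.0% of all genes, and H3K4me1 at 1, SNAI1, against 8.5%. The SNAI1 call for H3K4me1 comes from its high end, while its H3K4me3 lay at the low end, 1183 bp from which the nearest H3K4me1 summit lay. H3K4me3 and H3K27ac together marked the start of 3 of 5 EMT transcription factor genes (ZEB1, SNAI1, SNAI2) and of 1 of 5 epithelial genes (ESRP2), against 50.0% of all genes. The 95% Wilson intervals, which cover counting error only, were 23.1 to 88.2% for 3 of 5 and 3.62 to 62.4% for 1 of 5. They overlap, and as the genes were chosen by name and are no replicates, the intervals test no class difference. Among the genes placed by their boundaries, as 8 members were, 38.1% carried both marks, and among genes with a listed start 53.1% did; for H3K4me3 alone these shares were 48.4% and 62.0%. With either boundary used for every gene, the same 4 members carried both marks, against 47.4% of all genes.

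Counting the whole gene body with 1000 bp on either side added a gene to each class. H3K4me3 was then present in 7 of the 10 genes, against 69.0% of all genes. Both marks were present in 4 of 5 EMT transcription factor genes, ZEB2 being the addition, and in 2 of 5 epithelial genes, GRHL2 being the addition, against 61.2% of all genes. TWIST1, OVOL1 and ESRP1 had no H3K4me3 or H3K27ac summit in the gene.

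**Figure D1:**
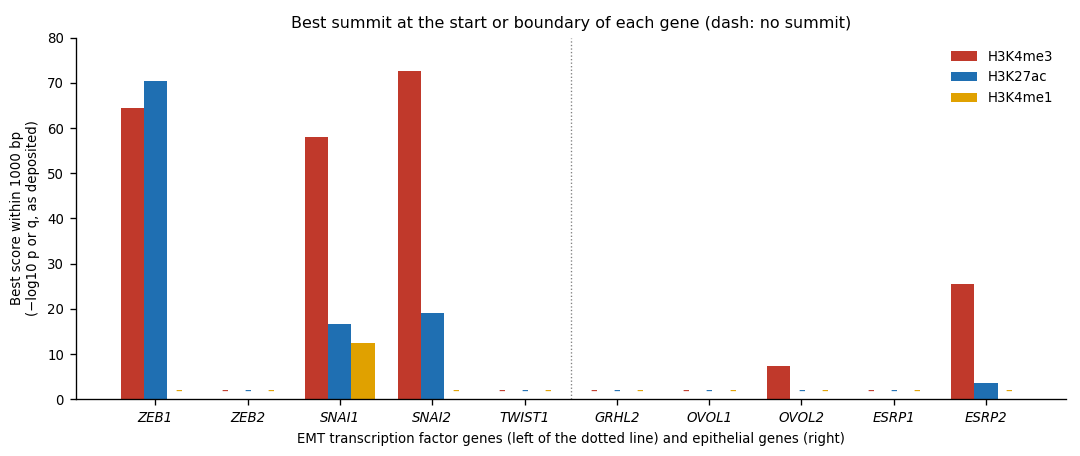
Best score, the authors' −log10 value, of the H3K4me3, H3K27ac and H3K4me1 summits at the start of each of the 10 genes, with EMT transcription factor genes first. SNAI2 has the highest H3K4me3 score (72.7), ESRP2 the lowest H3K27ac score of the 4 genes with that mark (3.67), and 5 genes have no H3K4me3 summit at the start. Scores of different marks are not comparable as signal.

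ZEB1, which encodes a zinc finger repressor of CDH1, lies at chr10:31318417-31529804 and carried both marks at its promoter. The 2 H3K4me3 summits near its starts scored 53.8, 215 bp into the gene, and 64.4, 2309 bp into the gene and 172 bp from a listed start. H3K27ac scored 45.0 at 239 bp and 70.5 at 923 bp, and the first of these lay 24 bp from the H3K4me3 summit in promoter sequence b. The H3K27ac score of 70.5 stood above 96.2% of its list and the H3K4me3 score of 64.4 above 90.7%. Outside this promoter the window held few summits for its length. In all it held 6 H3K27ac, 6 H3K4me1 and 3 H3K4me3 summits in 411.4 kb, and no H3K4me1 summit lay within 56362 bp of the low end of the gene. A lower density was found for 27.1% of protein-coding genes in H3K27ac and for 36.9% in H3K4me1.

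ZEB2, a close relative of ZEB1 with the same kind of DNA binding, lies at chr2:144384081-144520119 and is read from its high end. No H3K27ac summit lay within 1000 bp of its listed start, and the nearest H3K4me3 summit, 1335 bp outside the gene, scored 3.19. A pair lay 2822 bp inside the gene. There H3K4me3 scored 60.5, above 89.0% of its list, and H3K27ac, 2 bp away, scored 11.4, above 59.6% of its list. A further H3K4me3 summit of 21.5 lay 3656 bp outside the start, and one of 24.3 lay 5654 bp from the other end of the gene, with H3K27ac of 5.00 at 262 bp from it.

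SNAI1, which encodes Snail, lies at chr20:49982980-49988886. Its best H3K4me3 summit scored 58.1, 580 bp into the gene, and a second scored 7.10, 341 bp outside the low end. H3K27ac scored 11.9 at 315 bp outside the low end and 16.7 at 199 bp inside it, and 26.0 at 1123 bp beyond the other end. SNAI1 was the only member with H3K4me1 at a boundary, with scores of 12.4 and 4.51 near its high end. The H3K4me3 summit just outside the limit of 1000 bp, at 1018 bp, scored 2.30.

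SNAI2, which encodes Slug, lies at chr8:48917598-48921429. It had the highest H3K4me3 score at a start among the 10 genes, 72.7, which stood above 94.2% of its list and lay 141 bp from the high end. H3K27ac scored 14.1 at 14 bp from that summit and 19.0 at 298 bp outside the gene, the higher of them above 72.2% of its list. Over all genes with a summit at the start the median of the best score was 53.4 for H3K4me3 and 30.5 for H3K27ac. SNAI1 and SNAI2 were above the H3K4me3 median and below the H3K27ac median, while ZEB1 was above both.

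TWIST1, which encodes a basic helix-loop-helix factor, lies at chr7:19113047-19117636 and had no summit in its 204.6 kb window. Such empty windows were found for 5.56% of all protein-coding genes, 1111 of them. The nearest summits lay 122360 bp away for H3K4me3, 260324 bp for H3K27ac and 262067 bp for H3K4me1. The list cannot tell a region without the mark from one in which no peak was called.

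**Figure D2:**
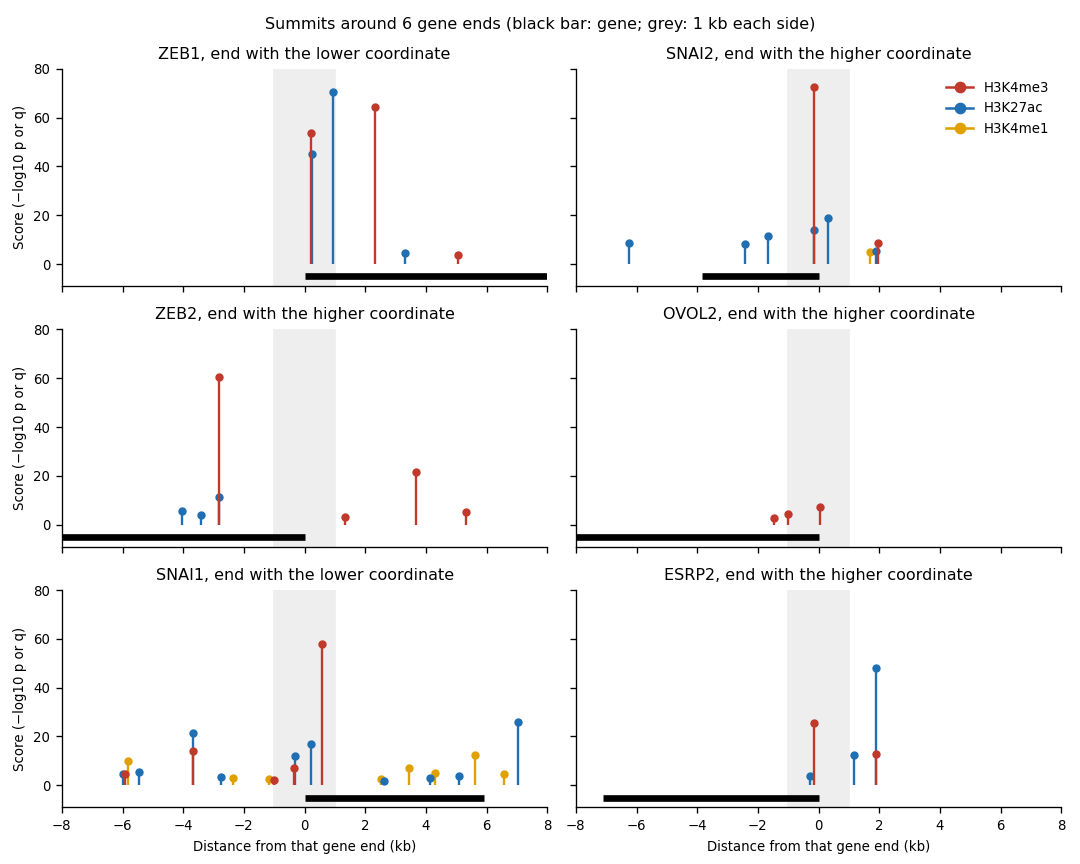
Summits of the 3 marks within a few kb of the start of ZEB1, ZEB2, SNAI1, SNAI2, OVOL2 and ESRP2, by distance in kb from the start or boundary and by score. ZEB1, SNAI1 and SNAI2 have H3K4me3 summits of 58.1 to 72.7, the ZEB2 summit of 60.5 lies 2822 bp inside the gene, and the best summits of OVOL2 (7.29) and ESRP2 (25.5) at their starts score lower.

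GRHL2, a grainyhead transcription factor of epithelia, lies at chr8:101492439-101681200. No summit of any of the marks lay within 1000 bp of either boundary, while its window held many distal summits. The nearest H3K4me3 summits were 10314 bp from the low end and 2774 bp from the high end. The window held 13 H3K4me3 summits, 12 of them in the gene, and the best scored 8.88, so that none reached 10. By contrast H3K27ac reached 88.6 at 40.3 kb outside the low end and 79.1 at 115.0 kb inside the gene, above 98.3% and 97.4% of its list. The start used by the cells is not given by any of these lists.

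OVOL1 and OVOL2 encode zinc finger repressors of ZEB1. OVOL1, at chr11:65787063-65797214, had neither H3K4me3 nor H3K27ac at its boundaries, and the nearest summits, 52.7 for H3K4me3 at 6774 bp and 19.3 for H3K27ac at 6541 bp, lay at the neighbouring gene AP5B1. OVOL2, at chr20:18024152-18059188, had an H3K4me3 summit of 7.29, below the median of that list, 44 bp outside its high end. A second H3K4me3 summit there, of 4.36, lay just beyond the limit at 1021 bp. The nearest H3K27ac summit to OVOL2 was 53090 bp away.

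ESRP1 and ESRP2 encode RNA-binding proteins that control epithelial splicing. ESRP1, at chr8:94641174-94707466, had no summit inside the gene, and the nearest H3K27ac and H3K4me3 summits lay 12564 bp and 13050 bp from its high end. ESRP2, at chr16:68229033-68236127, was the one epithelial gene with both marks at a boundary. H3K4me3 scored 25.5 at 143 bp from its high end and H3K27ac scored 3.67 at 297 bp, a value below the median of the H3K27ac list. The stronger H3K27ac of ESRP2 lay further out, 12.5 at 1163 bp and 47.9 at 1878 bp beyond that end, the last at the same base as an H3K4me3 summit of 12.8.

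Many of the stronger H3K4me3 summits in the epithelial windows lay at the boundaries of other genes. Of the H3K4me3 summits with a score of 10 or more, 4 of 14 in the EMT transcription factor windows (28.6%, Wilson interval 11.7 to 54.6%) and 17 of 20 in the epithelial windows (85.0%, 64.0 to 94.8%) lay within 2500 bp of the boundary of another protein-coding gene. Over the windows of all protein-coding genes, a summit counting in each window that holds it, the share was 59.4%, below that of the epithelial windows and above that of the EMT transcription factor windows. For H3K27ac the counts were 4 of 24 in the EMT transcription factor windows (16.7%, 6.68 to 35.9%) and 14 of 26 in the epithelial windows (53.8%, 35.5 to 71.2%), against 43.6% over all windows. The H3K27ac count of the epithelial windows rests on OVOL1, with 8 of 9. Without OVOL1, a count added after seeing the data, it was 6 of 17 (35.3%, 17.3 to 58.7%), and GRHL2 had 0 of 8. For H3K4me3 the epithelial count without OVOL1 was 8 of 10. Summits in 1 window are neighbours and no replicates, and the windows hold unequal numbers of genes. The EMT transcription factor windows held 1, 1, 5, 0 and 1 other protein-coding genes for ZEB1, ZEB2, SNAI1, SNAI2 and TWIST1. The epithelial windows held 1, 12, 4, 2 and 5 for GRHL2, OVOL1, OVOL2, ESRP1 and ESRP2.

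The OVOL1 window held the most such summits. Of its 16 H3K27ac and 16 H3K4me3 summits, 13 of each lay near other protein-coding boundaries, among them 84.0 for H3K27ac at KAT5 and 69.7 for H3K4me3 at CCDC85B and FIBP. The strongest OVOL1 summits outside these were H3K4me3 of 37.7 and H3K27ac of 28.3, 19 bp apart, inside a neighbouring predicted gene. In the OVOL2 window H3K27ac of 73.1 lay at MGME1 and SNX5 and 78.9 at KAT14 and PET117. All 3 H3K27ac summits of the ESRP1 window lay at VIRMA or DPY19L4, and the H3K4me3 score of 133 at VIRMA was the highest in any of the 10 windows. SNAI1 has this pattern too, with H3K27ac of 117 at SPATA2 and H3K4me3 of 95.8 at RNF114. In the ZEB2 window the best H3K27ac summit, 49.5, and an H3K4me3 summit of 48.7 lay at QTMAN.

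**Figure D3:**
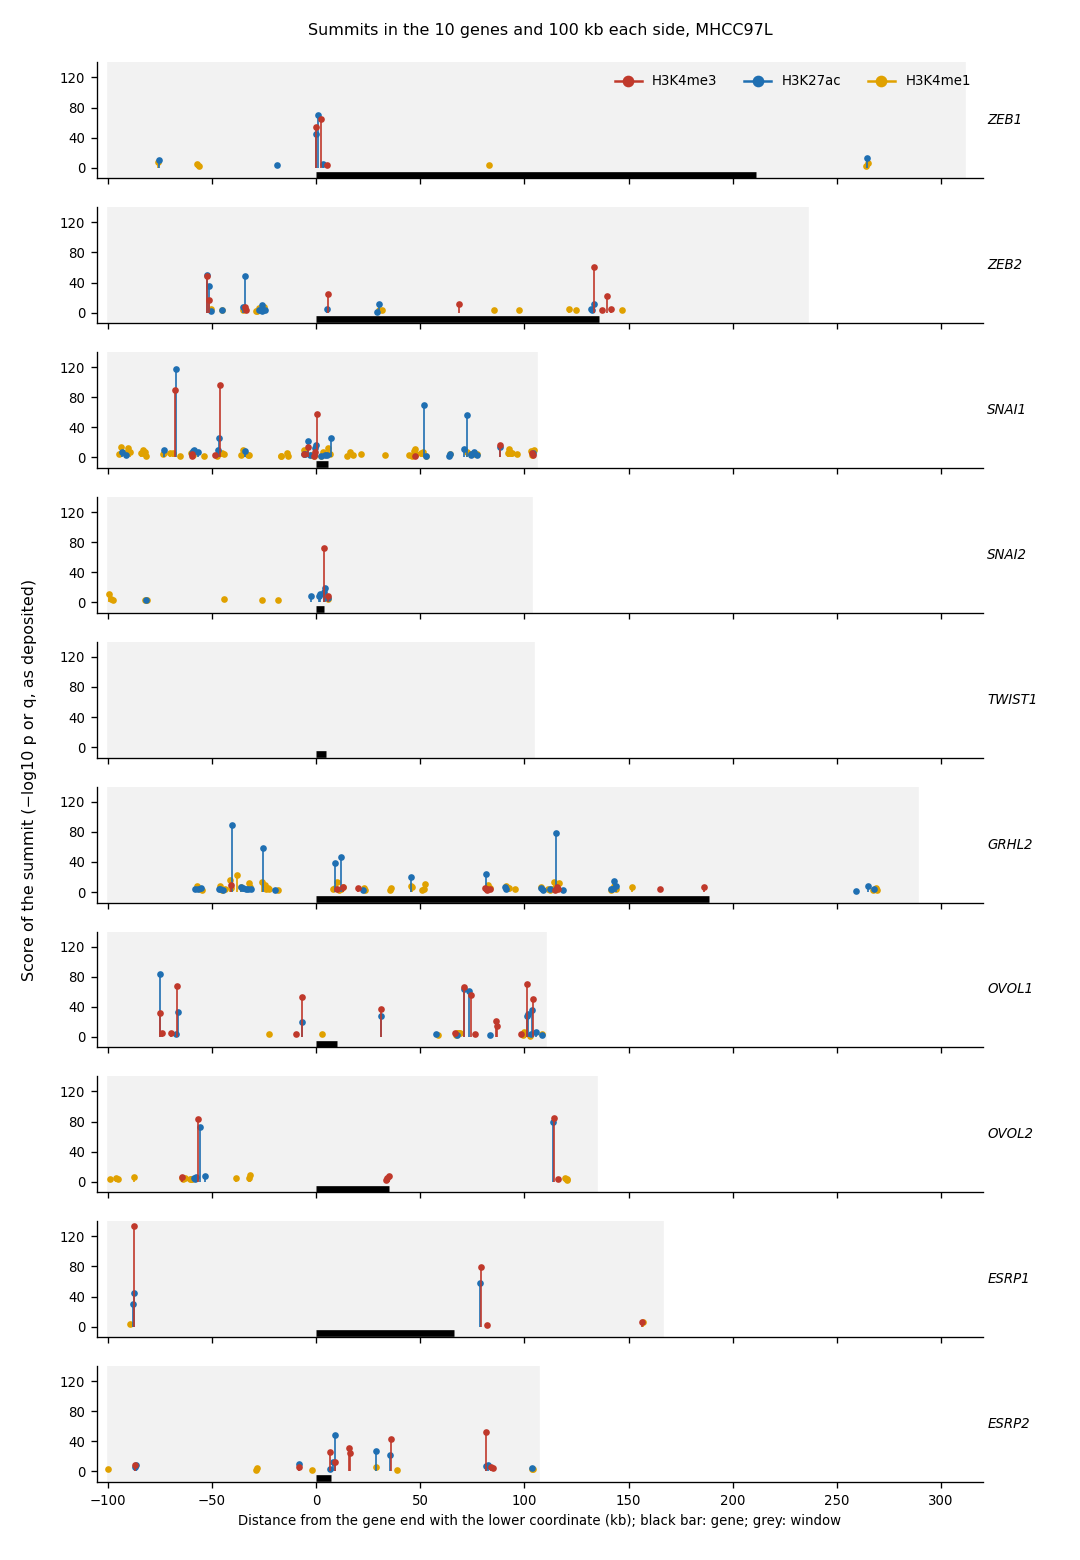
Summits of H3K27ac, H3K4me1 and H3K4me3 in the gene and 100 kb on either side for the 10 genes, by distance in kb from the low end of the gene, with EMT transcription factor genes first. TWIST1 has none, SNAI1 has 62 H3K4me1 summits, and GRHL2 has H3K27ac spread inside the gene and below its low end.

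The number of summits differed more within each class than between the classes. H3K27ac summits per 100 kb of window were 16.0 for SNAI1, 4.76 for ZEB2, 3.43 for SNAI2, 1.46 for ZEB1 and 0 for TWIST1. For the epithelial genes they were 8.49 for GRHL2, 7.61 for OVOL1, 5.31 for ESRP2, 2.55 for OVOL2 and 1.13 for ESRP1. The median was 3.43 for the EMT transcription factor genes, 5.31 for the epithelial genes and 3.43 for all protein-coding genes. The difference of class medians, EMT transcription factor minus epithelial, was -1.88. It changed sign, to 2.01, without the summits within 2500 bp of the boundary of another protein-coding gene. It was 2.78 with 50000 bp on either side. No order of the classes can be read from this density.

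Genes on 1 chromosome also differed. On chromosome 20 SNAI1 had 16.0 and OVOL2 had 2.55 H3K27ac summits per 100 kb, against 3.46 over the chromosome. On chromosome 8 SNAI2 had 3.43, GRHL2 8.49 and ESRP1 1.13, against 2.37 over the chromosome. SNAI1 was denser than 97.6% of all protein-coding genes in H3K27ac and than 99.6% in H3K4me1, with 62 H3K4me1 summits at 30.1 per 100 kb.

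Active distal sites were defined as H3K27ac summits with H3K4me1 within 1000 bp and no gene boundary within 2500 bp. There were 54 in the 10 windows, 27 in the EMT transcription factor windows and 27 in the epithelial windows, and 7 of the 10 genes had at least 1, against 62.9% of all genes. Of all distal H3K27ac summits in the windows, 54 of 74 (73.0%, Wilson interval 61.9 to 81.8%) had H3K4me1, against 29008 of 43996 (65.9%, 65.5 to 66.4%) over the chromosomes. The pooled share rests largely on GRHL2, with 23 of 30, and SNAI1, with 16 of 19. Neighbouring summits are no replicates, so these intervals cover counting error only. GRHL2 had 23 sites, SNAI1 had 16 and ZEB2 had 8. ZEB1, OVOL1 and ESRP2 had 2 each, SNAI2 had 1, and TWIST1, OVOL2 and ESRP1 had none. At least as many sites as GRHL2 were found for 1.28% of all genes, as SNAI1 for 4.06% and as ZEB2 for 16.3%. The windows differ in length, and per 100 kb the order of the first pair turned, with at least the density of SNAI1 for 1.74% of all genes, of GRHL2 for 4.11% and of ZEB2 for 22.3%. With 50000 bp on either side GRHL2 was denser than SNAI1, at 6.93 against 6.61. Members with 2 sites were matched or passed by 51.8% of genes.

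**Figure D4:**
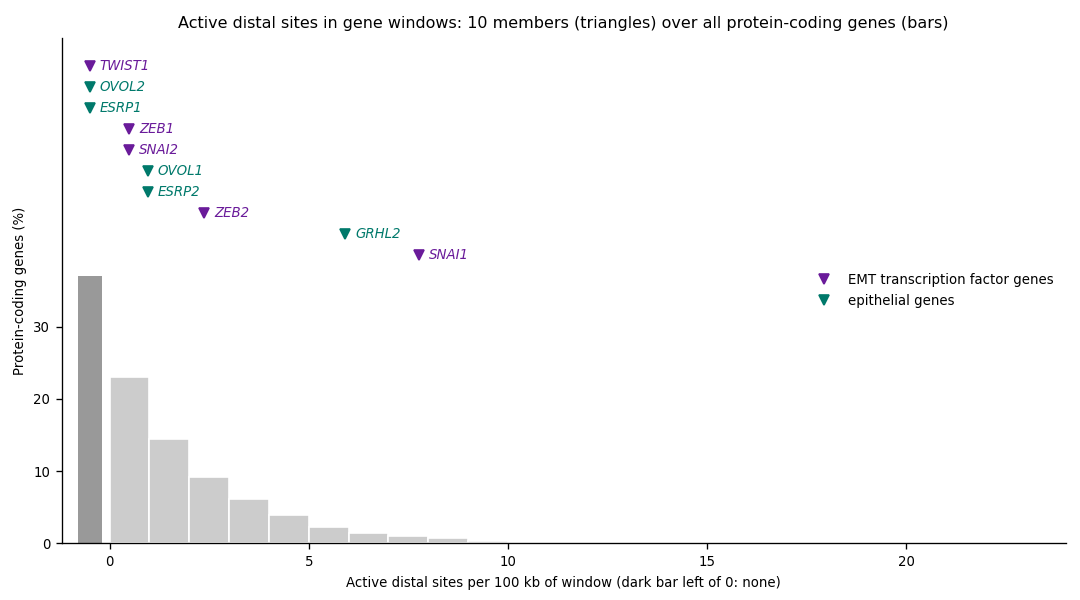
Active distal sites per 100 kb of window for the 10 genes (triangles, by class) over the distribution for all protein-coding genes (grey bars, percent of genes). SNAI1 (7.77) and GRHL2 (5.92) lie in the upper tail, and TWIST1, OVOL2 and ESRP1 have no site.

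The sites of GRHL2 spread over 324.7 kb with a median gap of 4.35 kb and formed 7 groups when sites closer than 12 kb were joined. Of the 23, 14 lay inside the gene, 8 below its low end and 1 above its high end. The last of these, at 267.8 kb from the low end, scored 4.61, lay inside another protein-coding gene and sets the far end of the span. The H3K27ac scores of the 23 sites ran from 2.41 to 88.6 with a median of 5.46, and 8 reached 10. Outside the low end the strongest scored 88.6 at 40.3 kb and 58.4 at 25.6 kb. Inside the gene they scored 39.0 at 9.0 kb, 46.6 at 12.1 kb, 19.6 at 45.7 kb, 24.3 at 81.8 kb, 79.1 at 115.0 kb and 14.6 at 143.1 kb. H3K4me3 lay within 1000 bp of 4 of the 23. The best H3K4me1 summit of the window, 22.8 at 37.9 kb outside the low end, stood above 99.8% of its list.

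The 16 sites of SNAI1 lay mostly outside the gene, which fills 5.9 kb of a 205.9 kb window, with 9 below it, 1 inside it and 6 above it, in 8 groups. Some of them lay inside other protein-coding genes, among them SPATA2 and RNF114. Their median score of 5.47 was close to that of the GRHL2 sites, 5.46, and 2 of them reached a score of 10. The strongest scored 70.3 at 51.8 kb from the low end, 4341 bp from the nearest gene boundary. H3K4me3 lay within 1000 bp of 7 of the 16 (43.8%, Wilson interval 23.1 to 66.8%) and of 4 of 23 for GRHL2 (17.4%, 6.98 to 37.1%). The share was 28.3% of the 29008 active distal sites on all chromosomes, a value inside both intervals. Neighbouring sites can share an H3K4me3 summit and are no replicates, so these intervals cover counting error only and test no difference. Counted per 100 kb, SNAI1 had 7.77 sites and GRHL2 had 5.92, while counted at a score of 10 or more SNAI1 had 2 and GRHL2 had 8.

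Of the 8 ZEB2 sites, 7 lay between 45.1 and 24.5 kb outside the low end, the end away from its start. These 7 lay between ZEB2 and the neighbouring gene QTMAN. The strongest of them scored 48.3 at 34.2 kb, 170204 bp from the listed ZEB2 start and 16846 bp from the nearest gene boundary, on the QTMAN side. It had H3K4me3 at 83 bp and H3K4me1 at 971 bp. Which gene these sites act on was not tested. The eighth lay inside the gene and scored 11.9. Both ZEB1 sites passed a score of 10, with 10.2 at 75.2 kb outside the low end and 13.1 at 264.6 kb above it, beyond the high end. The single SNAI2 site scored 3.54. The sites of OVOL1 (4.21 and 2.77) and ESRP2 (27.3 and 5.04) all lay inside other protein-coding genes.

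The other genes of the pathway were counted in the same way. Both marks lay at the start of 5 of 13 other EMT regulators, 4 of 10 other epithelial regulators, 3 of 6 targets high in mesenchyme and 4 of 10 targets high in epithelium, against 50.0% of all genes. Counted over the gene with 1000 bp on either side, these were 7 of 13, 6 of 10, 4 of 6 and 6 of 10, against 61.2%. The EMT regulators with both at the start were TCF3, CTBP1, CTBP2, RBFOX2 and QKI, of which the CTBP genes encode corepressors of ZEB proteins. TWIST2, SNAI3, TCF4, PRRX1, FOXC2, GSC and KLF8 were among those that lacked the pair at the start, and none of the marks was found in SNAI3, PRRX1, FOXC2 and GSC. TWIST2, the paralogue of TWIST1, had H3K27ac up to 54.0 inside the gene and no H3K4me3 there.

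Among the epithelial regulators ELF3, KLF4, KLF5 and TP63 had both marks at the start. ELF3, an epithelial ETS factor, scored 93.5 for H3K4me3 and 87.0 for H3K27ac, and TP63 scored 3.06 and 5.93. GRHL1, GRHL3, OVOL3, EHF and ELF5 were among those that lacked the pair at the start. EHF, another ETS factor, had H3K27ac of 142 inside the gene and 28 active distal sites in its window. Of the paralogues of GRHL2, GRHL1 had H3K4me3 of 25.5 without H3K27ac at its start, and GRHL3 had neither mark at its start.

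The targets were mixed. CDH2, VIM and FN1, genes high in mesenchyme, carried both marks at the start, with H3K4me3 of 75.9 and H3K27ac of 21.9 at CDH2, which encodes N-cadherin. SPARC, MMP2 and COL1A1 lacked the pair at the start. CLDN4, CRB3, MARVELD2 and LLGL2, genes high in epithelium, carried both at the start, and CDH1, EPCAM, CLDN7, RAB25, ST14 and PKP3 did not. PKP3 had H3K27ac of 74.2 and H3K4me3 up to 58.1 in the gene or on its flanks of 1000 bp. CDH1, which encodes E-cadherin, had H3K4me3 of 17.7 at the start, H3K27ac up to 54.2 inside the gene and 9 active distal sites. EPCAM had none of the marks in the gene, but its window held 10 active distal sites. Its nearest H3K27ac summit scored 40.3, at 8511 bp from the gene.

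The microRNA loci differed in their strongest summits. At MIR200C and MIR141, on chromosome 12, H3K27ac scored 107 at 1918 bp before the hairpins, with H3K4me1 up to 12.9 and H3K4me3 of 10.3 within 1000 bp of that summit. This H3K27ac summit lay 465 bp from the end of PTPN6. Nearer the hairpins, at 437 bp, lay an H3K4me3 summit of 6.84. At MIR200B, MIR200A and MIR429, on chromosome 1, the best H3K27ac score was 5.52 and the best H3K4me3 score 7.29, both within 2500 bp of the low end of the cluster. For MIR429 alone the nearest H3K27ac and H3K4me3 summits lay further off, at 2890 bp and 3033 bp. MIR205 had an H3K4me1 summit of 4.58 at 1930 bp and neither of the other two marks within 5000 bp. Over 1911 microRNA genes, 21.5% had H3K27ac, 17.9% H3K4me1 and 20.0% H3K4me3 within 2500 bp.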

How the data were processed

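The authors deposited 1 list of peak summits for each of the 3 marks, with a −log10 p-value or q-value as the score; the sources used here do not say which of the 2 it is. The submitters' processing notes name MACS2, Bowtie, deepTools and Picard, without versions, and the hg38 build, and do not say whether the input was the control. A score depends on depth and background, so scores were compared within a list only. Summits on chromosomes 1 to 22 and X were set against RefSeq genes of GRCh38.p14, whose coordinates are those of hg38, with Python 3.11.15, numpy 2.4.6 and pandas 2.3.3. Starts came from the RefSeq promoter table for 15813 genes, and for 4161 genes either boundary was used, so a mark at the far end of such a gene also counts. Counting was tested on simulated data. The genes and lists were chosen with earlier results of these data known. All 10 genes are named, and each list's members with and without both marks at the start, except a few list members that are counted but not reported here by name. Neighbours are named where their boundary lies within 2500 bp of a named summit. Alternatives changed the window, the distances and the score limit. There are no replicates and no tests.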

Additional observations from a re-analysis of the deposited data

How the results depend on the processing

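No paired analysis was possible because each mark has 1 library and no test was made. Of 53 alternatives 27 left the value close to that reported. Both marks lay at the start of 4 genes, and of 3 or 4 under each other distance, score limit or choice of boundary; counted over the whole gene it was 6. ESRP2 lost its call at a score of 5 or more. The H3K27ac density difference (EMT transcription factor minus epithelial medians, per 100 kb) of -1.88 was 2.78 with 50000 bp and -0.465 with 200000 bp on either side. It was -1.18 and -0.460 at scores of at least 5 and 10, and 2.01 without summits near the boundaries of other protein-coding genes. The active distal site difference of -0.461 was -0.908 and 0.0888 with those windows, 0.298 and 0 at those scores, 0.0148 with H3K4me1 within 500 bp, and 0.0295 and 0.491 with distal set at 1000 and 5000 bp, so it has no stable sign. Active distal sites numbered 54, against 107 with 200000 bp, and 24 and 2 when all summits had to reach scores of 5 and 10. Summits numbered 75 and 258 with 50000 and 200000 bp for H3K27ac (131 as reported), 110 and 366 for H3K4me1 (184) and 48 and 142 for H3K4me3 (79). At scores of 5 and 10 they numbered 83 and 50 for H3K27ac and 76 and 15 for H3K4me1, and at a score of 10 H3K4me3 had 34. These counts follow from the construction of each alternative; the cause of the sign changes was not tested. GRHL2 had the most active distal sites in each setting except 200000 bp, where SNAI1 did. Per 100 kb SNAI1 was the densest as reported. GRHL2 was the densest with 50000 bp on either side, at a score of at least 10 and with distal set at 5000 bp. With distal set at 5000 bp the 16 sites of SNAI1 fell to 7, against 8 for ZEB2 and 22 for GRHL2. Read depth is unknown, and a gene without a summit may carry a mark too weak to be called.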
